A study of Oryza sativa Indica Group with 6 samples.

Results

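The genes described here encode the transporters by which rice takes up and moves potassium, phosphate, ammonium and nitrate. They were chosen by name alone. A gene was a member if its symbol or a synonym named it as a HAK potassium transporter, a PHT1 phosphate transporter, an AMT ammonium transporter or an NRT1 or NRT2 nitrate transporter, and each gene was represented by its probe set of highest mean signal. The reference names 49 such genes, and 41 of them were measured, by 59 probe sets, out of 17905 genes and 57258 probe sets in all. These are 22 of 25 HAK genes, 9 of 12 PHT1 genes, 8 of 9 AMT genes and 2 of 3 NRT genes, both of the NRT2 kind. No gene with an NRT1 name was matched. The members named but not measured are *HAK6*, *HAK19*, *HAK24*, *PHT1-5*, *PHT1-10*, *PHT1-13*, *AMT1-3* and *NRT2.1*. *AMT1-2* and *AMT1-3* are neighbours that carry each other's name as a synonym in the reference, and the measured gene was taken as *AMT1-2* from its name OsAMT1;2 there. The rule also caught *GRF4*, a growth-regulating transcription factor with *PT2* among its synonyms, which is not a transporter and was set apart.

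Signals came from the Affymetrix Rice Genome Array, hybridized with total RNA of 2-week-old seedlings of wild-type *indica* rice (cultivar 3037) and of *sd37*, with 1 array for each of 3 biological replicates per genotype. The semi-dwarf *sd37* is a single line, a spontaneous mutant of 3037 with an amino acid substitution in the cytochrome P450 *CYP96B4*, and both genotypes share the 3037 background and received no treatment. The plants grew in MS pots in a growth chamber, with days of 16 h at 26°C and nights of 8 h at 18°C. The labels name seedlings, a footnote to the study's gene list speaks of apices, and nothing says whether the replicates were separate sowings, so p-values measure the spread between these arrays.

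Potassium, phosphate, nitrate and ammonium enter the root from the soil solution through membrane proteins of large families, and further members load the xylem and phloem, fill or empty the vacuole and move nutrients out of old leaves. HAK proteins carry potassium, some of them at very low outside concentrations. PHT1 proteins are proton-coupled phosphate carriers, AMT proteins are ammonium channels or transporters, and NRT2 proteins are high-affinity nitrate transporters that work with a small partner protein, NAR2. Many of these genes are known for transcripts that change with the supply of their own nutrient.

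Replicate 1 was set off from the other 4 arrays in both genotypes. Its median signal was 51 (wild type) and 56.2 (*sd37*), against 32.3 to 34.3 in replicates 2 and 3, and 35.3% to 38.8% of the probe sets of an array had a signal of at least 100. The transporters were therefore compared both by genotype and by replicate number. The summed signal of 11 leaf markers was 292000 and 326000 in replicate 1 and 112000 to 150000 elsewhere, carried by genes such as *CAB2R* and *rca*, while *RBCS1* stayed at 10.9 to 33.3 and *PORA* ranged from 2.3 to 7160.2. The summed signal of 10 root markers lay between 2340 and 4880 and came mostly from the silicon transporter *Lsi1*. *SCR1*, of the root endodermis, read 149 to 559 and the iron transporter gene *IRT1* 88.1 to 333, while the silicon exporter gene *Lsi2* stayed at 1.4 to 8.2 and the crown root gene *WOX11* at 0.9 to 25.3, close to background. How much root the seedling samples held was not tested.

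In a bulk sample, fewer cells that express a transporter and less transcript per cell cannot be told apart. Of the 41 genes, 22 had a signal of at least 100 on all 6 arrays (15 HAK, 3 PHT1, 3 AMT and 1 NRT), 10 on some arrays and 9 on none. The mean signal of 8 genes lay below 30.1, the median of the mean signals of all probe sets. Precision follows brightness on these arrays. The median standard error of a log2 difference between genotypes was 0.29 among the brightest 25% of all probe sets and 1.08 among the dimmest 25%. Of the members, 10 were read by a probe set with the suffix x and 1 by a probe set with the suffix s, marks of probes that other transcripts may share. Of the defining genes, *HAK1*, *AMT1-2* and *NRT2.3* exceeded 100 on all 6 arrays, and *PTH1-2* stayed below 100 on all of them. Signals of different genes come from different probes, so their levels are not compared as amounts of transcript.

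Between the genotypes, no transporter gene passed the test. Differences are given as log2 of *sd37* over the wild type, with limma's standard error (SE) and n = 3 arrays for each genotype. To be called, a gene needed a p under 0.05 after Benjamini-Hochberg adjustment over all probe sets and a change of at least 1.5-fold. By this rule 0 of the 41 transporters were called, and so were 0% of all probe sets. Without the adjustment, 1 of the 41 met the same limits, *HAK4*, which was higher in *sd37*, where 2.18% of all probe sets met them and 1.2% as higher. The adjusted p was 1 for each of the 41. The members spread on both sides of 0, with 18 higher and 23 lower in *sd37*, a median of -0.03 and a range of -2.08 to 2.09. Over all probe sets the median was 0.02.

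Within the HAK, PHT1 and AMT families members also lay on both sides of 0. The HAK genes had a median of 0.00, with 11 higher and 11 lower in *sd37*, and the AMT genes -0.04, with 4 higher and 4 lower. The PHT1 genes had -0.21, with 3 higher and 6 lower. The NRT2 genes, with only 2 members measured, had -0.84, and both were lower. Among the 22 genes with all 6 arrays at 100 or more, 20 differed by less than 1.5-fold between the genotypes, and the range ran from -0.80 to 0.47. The exceptions were *HAK16* and *NRT2.3*.

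**Figure D1:**
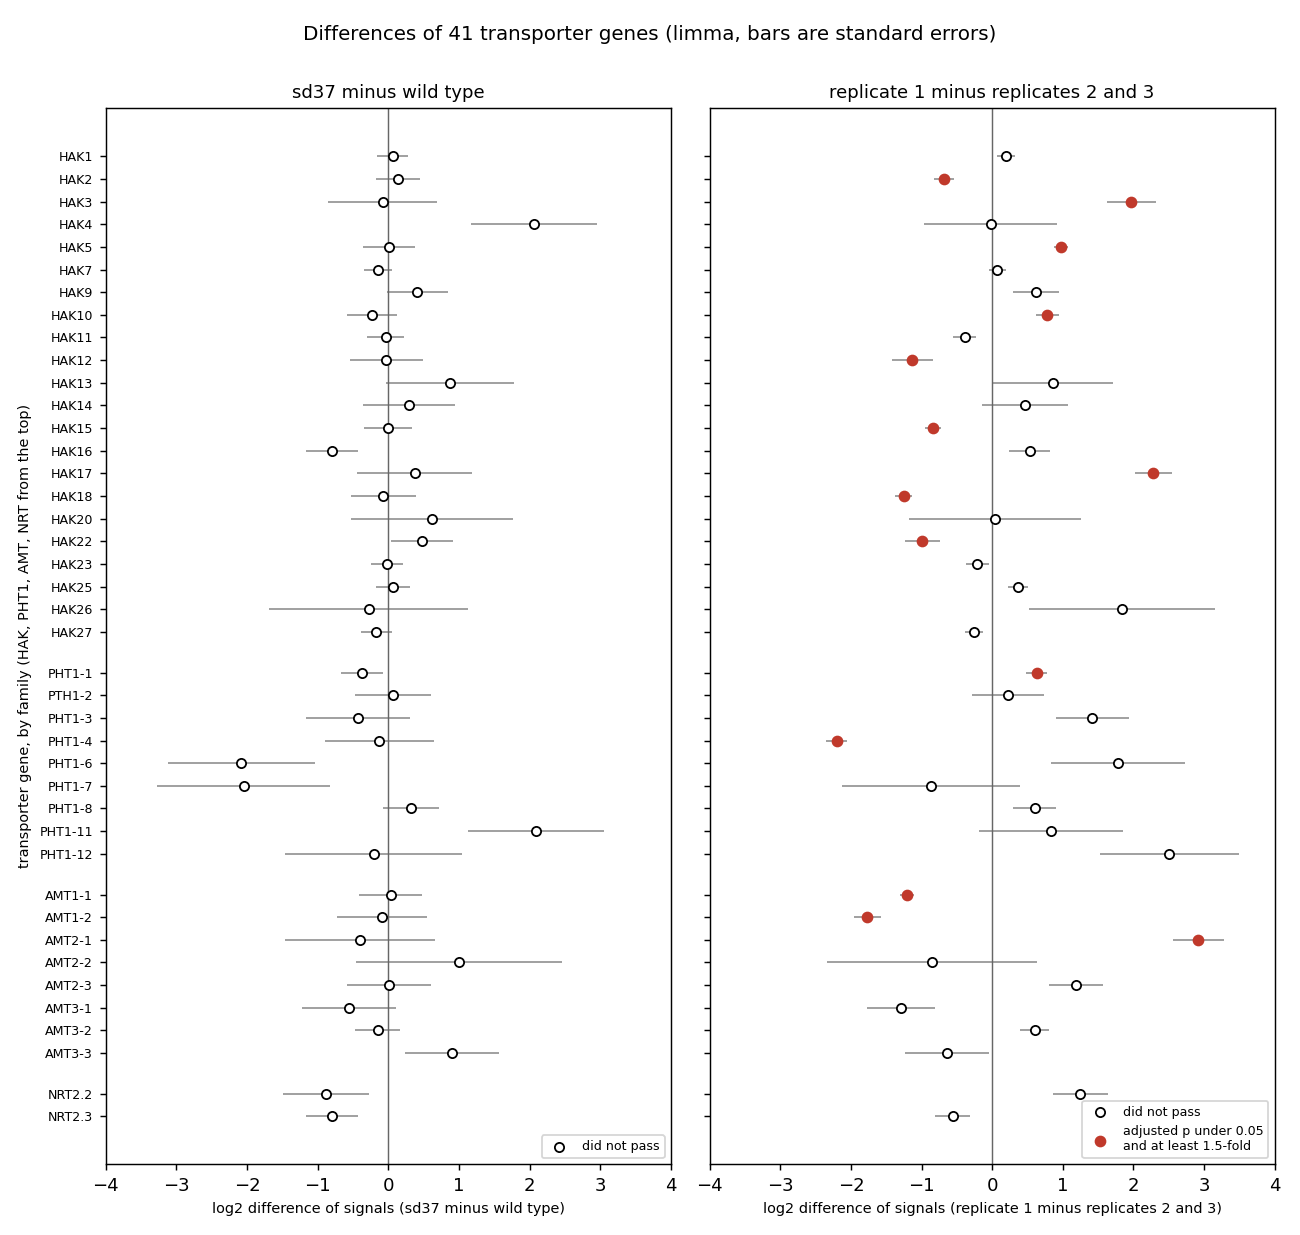
Log2 differences of the 41 measured transporter genes, in 4 families from the top, between *sd37* and the wild type (left) and between replicate 1 and replicates 2 and 3 (right). Points are estimates and bars standard errors from limma; filled points are called genes (at least 1.5-fold, p under 0.05 after adjustment), 0 on the left and 14 on the right.

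*NRT2.3* encodes a high-affinity nitrate transporter whose splice forms act in nitrate transport from root to shoot and in the phloem. The gene was read by 1 probe set with the suffix x, so other transcripts may share the signal. Its signals in replicates 1, 2 and 3 were 159.5, 277 and 311 in the wild type and 123, 156 and 137 in *sd37*. Every *sd37* array was lower than every wild-type array. The log2 difference was -0.80 (SE 0.37, adjusted p = 1, unadjusted p = 0.065 from limma). It was -0.37 in replicate 1, -0.83 in replicate 2 and -1.18 in replicate 3. With no overlap any pairing of the arrays gives this sign, so it adds no further evidence. With the replicate number as a block the unadjusted p was 0.0152 and the adjusted p 0.739.

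*NRT2.2*, the other nitrate transporter gene, lies next to *NRT2.1*, a close paralog that was not measured separately, and signal from the pair may be shared. Its signals were 187, 74.5 and 64.2 in the wild type and 85.4, 37.6 and 44.4 in *sd37*. Here the ranges overlapped, because *sd37* replicate 1 exceeded wild-type replicates 2 and 3, although *sd37* was lower within each replicate number. The log2 difference was -0.88 (SE 0.61, adjusted p = 1 from limma), and it moved to -0.40 without wild-type replicate 1 and to -1.24 without *sd37* replicate 1.

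*HAK16*, a potassium transporter known for potassium uptake and root-to-shoot movement under salt stress, was steady in the wild type, with 5763, 5389.9 and 5486. In *sd37* it read 4994, 3720.3 and 1730.2, so that the arrays of the genotypes did not overlap but the *sd37* arrays differed widely among themselves. The log2 difference was -0.80 (SE 0.37, adjusted p = 1, unadjusted p = 0.0624 from limma), and -0.36 without *sd37* replicate 3. With the replicate block its adjusted p was 0.686, the smallest of the 41. *HAK27*, its neighbour in the genome, had 6517, 9117 and 8627 in the wild type and 6853, 6497 and 8026 in *sd37*, with overlapping ranges and a difference of -0.17 (SE 0.22).

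The remaining members whose genotypes did not overlap were all dim. *HAK4* had 1.4, 1.2 and 2.4 in the wild type and 7.4, 15.2 and 2.6 in *sd37*, a log2 difference of 2.06 (SE 0.89, unadjusted p = 0.0489). *PHT1-11*, a phosphate transporter gene known for its induction by mycorrhizal fungi, had 7.2, 10 and 2.1 against 35.9, 16.3 and 19.8, a difference of 2.09 (SE 0.96, unadjusted p = 0.0612). Its further 3 probe sets gave 2.32, 0.59 and -1.75, so they did not share a direction. *PHT1-6*, a high-affinity transporter of phosphate uptake, went the other way, with 30.4, 6.2 and 6.5 in the wild type and 4.6, 3.5 and 0.9 in *sd37*, a difference of -2.08 (SE 1.04, unadjusted p = 0.0811). None of these 3 genes reached a signal of 100 on any array, and the size of such differences is poorly known. In all, 5 of the 41 members did not overlap between the genotypes (2 higher and 3 lower in *sd37*), where 6.07% of all probe sets did not (3.2% higher and 2.87% lower).

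**Figure D2:**
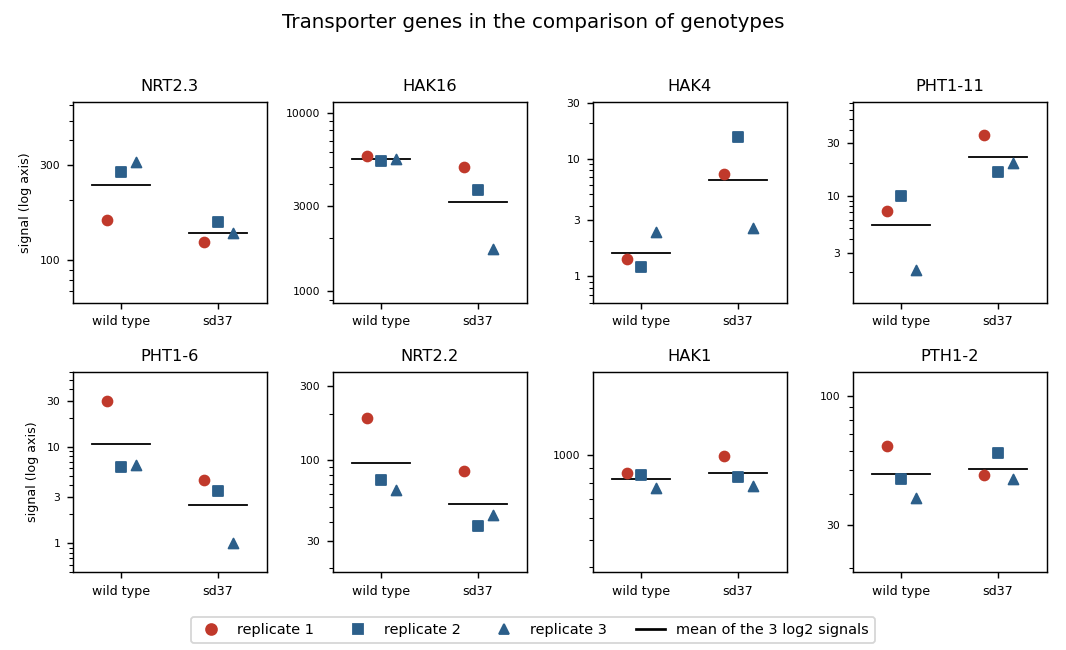
Signals on each of the 6 arrays, on log axes, of 8 transporter genes in the wild type and *sd37*, with symbols for the replicate number and lines for the mean of the 3 log2 signals. Values under 1 are drawn at 1. *NRT2.3*, *HAK16*, *HAK4*, *PHT1-11* and *PHT1-6* show no overlap between the genotypes, and *NRT2.2*, *HAK1* and *PTH1-2* do overlap.

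Several well-known uptake genes had similar means in the 2 genotypes. *HAK1*, a high-affinity potassium transporter of rice roots, had 867, 850.5 and 768 in the wild type and 992, 837 and 777 in *sd37*, a difference of 0.06 (SE 0.22). *HAK5*, which acts in potassium uptake and in its transport to the shoot, had means of 20000 and 20200 and a difference of 0.01 (SE 0.37), which ran from -0.29 to 0.35 when 1 array was left out. *AMT1-1*, an ammonium transporter gene expressed in root and shoot, had means of 14100 and 14500, with a difference of 0.03 (SE 0.44), and -0.35 to 0.45 with 1 array left out. For *AMT1-2*, an ammonium transporter gene of the root, the means were 568 and 535 and the difference -0.09 (SE 0.64), or -0.78 without wild-type replicate 1 and 0.40 without *sd37* replicate 1. *PTH1-2*, which encodes the phosphate transporter Pht1;2 of the root stele, read 63, 46.2 and 38.4 in wild-type and 48, 58.9 and 46 in *sd37* arrays, a difference of 0.07 (SE 0.54). All 5 pairs of groups overlapped, and a p that misses the threshold does not show that the levels are equal, since limma's errors here include the gap between replicate 1 and the rest.

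With the replicate number as a block, which takes this gap out of the error, 0 of the 41 transporters were called, where 0.0105% of all probe sets were. Without adjustment 2 transporters met the limits, *HAK16* and *NRT2.3*, both lower in *sd37*, against 4.27% of all probe sets and 1.99% as lower. *HAK4* was no longer among them, with an unadjusted p of 0.0547. The test of whether the genotype difference itself differed between replicate 1 and the rest called 0 transporters and 0% of probe sets, and 5 of 41 and 7.71% without adjustment. The smallest adjusted p among the members was 0.573, for *HAK22*. Its difference between genotypes was -0.39 in replicate 1, 0.86 in replicate 2 and 0.92 in replicate 3.

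Read by replicate number, the same genes differed often. Replicate 1 was set against replicates 2 and 3 with the genotype in the fit (2 arrays against 4). This contrast was chosen because replicate 1 was already known to stand apart, and the labels do not say what the number stands for. By the same rule 14 of the 41 transporters were called, or 34.1%, against 19.2% of all probe sets and 32.6% of the 17905 genes taken by their brightest probe set. The transporters' share is thus close to that of all genes. Among the 22 transporters with all 6 arrays at 100 or more, 11 were called, where 40.6% of all probe sets as bright were. Of the 14, 6 were higher and 8 lower in replicate 1, where 9.38% and 9.85% of all probe sets were. Of the 17905 genes, 2515 were called higher and 3319 lower, so lower calls were the more frequent there too. The called genes came from the HAK (9 of 22), AMT (3 of 8) and PHT1 (2 of 9) families, and 0 of 2 NRT2 genes were called, with *NRT2.2* at an adjusted p of 0.0532 and *NRT2.3* at 0.148. Medians were 0.14 for HAK, 0.63 for PHT1, -0.74 for AMT and 0.34 for NRT2, beside 0.39 for all probe sets and -0.02 for all genes.

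The ammonium transporter genes of the AMT1 kind were lower in replicate 1. *AMT1-1* had 8241 in wild-type and 8136 in *sd37* replicate 1, and 17742, 19261, 18018 and 20644 on the other arrays, wild type first. This made replicate 1 2.31-fold lower (log2 difference -1.21, SE 0.10, adjusted p = 7.23e-05 from limma, n = 2 and 4 arrays). A second, dimmer probe set of *AMT1-1* had -0.03, with overlapping arrays, and did not pass. *AMT1-2* had 217 and 272.5 in replicate 1 and 828, 1021, 716 and 784 elsewhere, 3.41-fold lower (log2 difference -1.77, SE 0.19, adjusted p = 0.000223). For these brightest probe sets, both replicate 1 arrays lay below the other 4.

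*AMT2-1*, an ammonium transporter gene of a separate subfamily, went the opposite way. Its signals were 802 and 967 in replicate 1, against 149 and 152 in the wild type and 137 and 59 in *sd37* for replicates 2 and 3. Replicate 1 was 7.56-fold higher (log2 difference 2.92, SE 0.36, adjusted p = 0.000541 from limma). *AMT3-2* had 4467 and 3979 in replicate 1 and 2086 to 3526 elsewhere and was not called (0.60, adjusted p = 0.0729). *AMT3-1*, known for induction by mycorrhizal fungi, had 139.5 and 38.9 in replicate 1 and 124 to 274.5 elsewhere (-1.29, adjusted p = 0.0924), with overlap. *AMT3-3* differed in sign between the genotypes in the same contrast, with -1.43 in wild-type and 0.16 in *sd37* arrays, and did not pass either.

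Among the phosphate transporter genes, *PHT1-4* gave the clearest difference. It encodes a transporter of phosphate uptake and movement within the plant. Its only probe set has the suffix x, so other transcripts may share the signal, and the nearby *PHT1-5* and *PHT1-13* were not measured. The signal was 598 and 440 in replicate 1 and 2153, 2508, 2602 and 2169 on the other arrays, 4.58-fold lower in replicate 1 (log2 difference -2.20, SE 0.15, adjusted p = 2.6e-05 from limma). *PHT1-1*, a phosphate transporter gene known for expression that depends little on supply, was higher, with 3409 and 2503 against 2173, 2066, 2033 and 1404 (0.63, SE 0.15, adjusted p = 0.0185). That call is fragile. A second probe set of *PHT1-1* had -0.84 (adjusted p = 0.0689), and the gene was called in 5 of the 14 alternative analyses. *PTH1-2*, separated from *PHT1-1* by 1 gene in the genome, had 0.23 and *PHT1-8*, another high-affinity transporter gene, 0.60, and neither passed.

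The potassium transporter genes moved in both directions. *HAK17* was 4.85-fold higher in replicate 1, with 3589 and 4362 there against 660.2, 761, 1390.5 and 636 (log2 difference 2.28, SE 0.26, adjusted p = 0.000354 from limma), and its second probe set was also called, with 1.54. *HAK5* had 31949.9 and 30816 in replicate 1 and 15224, 16382, 15512 and 17132 elsewhere (0.97, SE 0.10, adjusted p = 0.000196). The *HAK5* call was lost with quantile normalization (0.46), median centring (0.30) and eBayes without a trend, and a dimmer second probe set had 0.22 and did not pass. *HAK3* (1.97, adjusted p = 0.00354) and *HAK10* (0.78, adjusted p = 0.0078), which encodes a potassium transporter of the vacuolar membrane, were the other HAK genes called higher. Both calls were lost without wild-type replicate 1, and that of *HAK10* also without *sd37* replicate 1 and with median centring (0.11). The second probe set of *HAK3* was dim and went the other way, with -2.62 (adjusted p = 0.13).

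On the lower side, *HAK18*, known for potassium redistribution through the phloem, had 1625 and 1399.8 in replicate 1 and 3559, 3597, 3325 and 3845 elsewhere. Replicate 1 was 2.37-fold lower (log2 difference -1.25, SE 0.12, adjusted p = 0.000103 from limma). *HAK15* was also lower, with 859 and 887 against 1498 to 1589 (-0.84, adjusted p = 0.000906). *HAK2* (-0.68, adjusted p = 0.00726) and *HAK12* (-1.13, adjusted p = 0.0245), a gene known for sodium retrieval from the xylem, were called lower too, in 10 and 8 of the 14 alternative analyses. The call of *HAK2* was lost without wild-type replicate 1, and that of *HAK12* without any of wild-type replicates 1, 2 and 3 or *sd37* replicate 3. For *HAK22* the difference was -0.35 in the wild type and -1.63 in *sd37* (pooled -0.99, adjusted p = 0.0196). Its call held in 9 of 14 alternatives and was lost without *sd37* replicate 1 (-0.35) or replicate 3 (-0.89), and its dim second probe set had 1.15 (adjusted p = 0.175).

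Several bright transporter genes did not pass. *HAK1* had 867 and 992 in replicate 1 and 768 to 850.5 elsewhere, a log2 difference of 0.20 (SE 0.13, adjusted p = 0.326), although its dimmer second probe set was called, with 0.86 (adjusted p = 0.0407). *HAK7* had 0.07, *HAK23* -0.21 and *HAK27* -0.26. Of the 27 members not called, 11 had all 6 arrays at 100 or more and differences of -0.56 to 0.62, and 9 had no array at 100, where the errors are large. The markers *HAK1*, *NRT2.3* and *PTH1-2* were thus not called, and *AMT1-2* was.

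**Figure D3:**
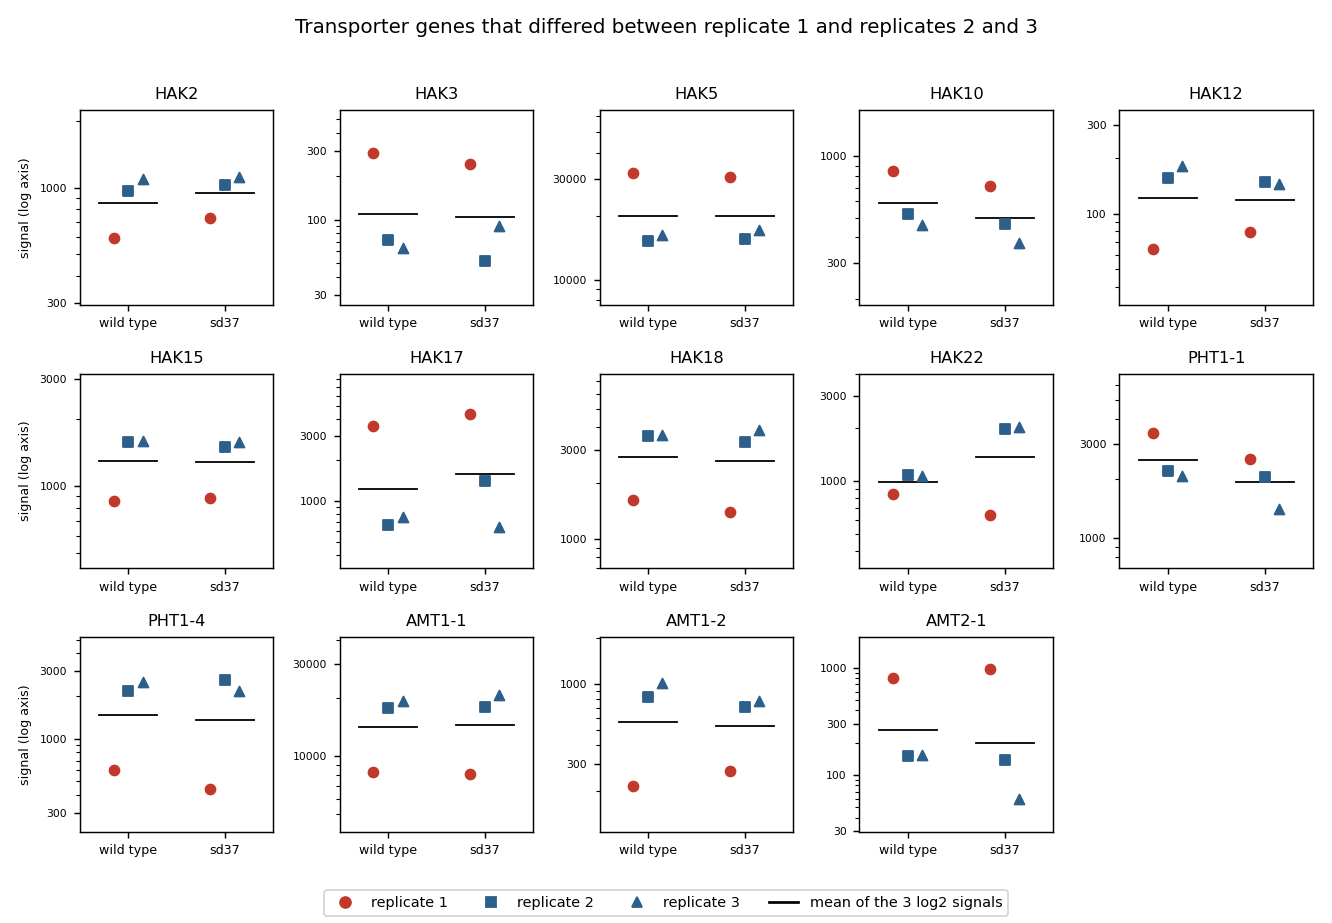
Signals on each array, on log axes, of the 14 transporter genes called between replicate 1 (circles) and replicates 2 and 3 (squares and triangles), by genotype, with lines for the mean of the 3 log2 signals. Both circles lie above or below all 4 other points for every gene; for *HAK22* the gap is small in the wild type.

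Both replicate 1 arrays lay above the other 4 for 13 of the 41 members and below them for 9, where 44.9% of all probe sets showed such a separation (27.4% above and 17.6% below). The difference had the same sign in both genotypes for 31 of 41 members (75.6%), beside 79.1% of all genes and 71.1% of all probe sets. Replicates 2 and 3 were closer to each other. Between them 0 transporters and 0% of all probe sets were called, and without adjustment 3 of the 41 met the limits (*HAK13*, *PHT1-8* and *AMT3-2*, all higher in replicate 2), where 3.52% of probe sets did and 2.14% as higher. How the plants, the harvest or the hybridization of replicate 1 differed is not stated, and these cannot be told apart.

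The other genes of the 3 nutrient pathways were taken from lists of names. Between the genotypes 0 of 5 potassium channel and HKT genes, 0 of 14 genes of phosphate homeostasis and 0 of 12 genes of nitrogen assimilation and sensing were called. *TPKB*, a tandem-pore potassium channel gene of small vacuoles, came nearest, with 169, 247 and 267.5 in the wild type and 72.8, 103 and 113 in *sd37*. All 3 *sd37* arrays were lower, by -1.24 on the log2 scale (SE 0.38, unadjusted p = 0.0117, adjusted p = 1 from limma). The adjusted p with the replicate block was 0.426. Of all probe sets, 2.18% met the limits without adjustment and 6.07% did not overlap between the genotypes. The dim *SPX3* did not overlap either and was higher in *sd37* (log2 difference 2.24, SE 1.09).

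Against replicate 1, 8 of 14 genes of phosphate homeostasis were called, 2 higher and 6 lower, with a median of -0.65. Of all genes 32.6% were called, and of all probe sets 19.2%. Most of the 14 genes had signals of at least 100 on all 6 arrays, and 40.6% of all probe sets as bright were called. *SPX2* and *SPX1* encode phosphate-dependent inhibitors of the PHR factors that drive the phosphate starvation response. *SPX2* had 1013 and 859.9 in replicate 1 and 12676, 11144, 13919.6 and 12820.4 elsewhere, 13.5-fold lower in replicate 1 (log2 difference -3.76, SE 0.13, adjusted p = 1.16e-06 from limma). *SPX1* had 1199.5 and 939.6 against 4966, 4054, 6050.5 and 5436, 4.78-fold lower (-2.26, SE 0.17, adjusted p = 3.63e-05). *PHR2*, the gene of the main PHR factor, was lower by less (-0.72, adjusted p = 0.000916), as was *PHO1-3*, of the PHO1 family of phosphate exporters (-1.52, adjusted p = 0.000661). *PHO1-2* and *MGD2*, a galactolipid synthase gene, were the remaining genes called lower, and *PHR3* and *MGD3* were higher. These 4 calls are less firm. They held in 9 (*PHO1-2*), 8 (*MGD2*), 9 (*PHR3*) and 10 (*MGD3*) of the 14 alternative analyses, and *MGD2* read only 4.3 to 110.7.

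Of 12 genes of nitrogen assimilation and sensing, 8 were called, 4 higher and 4 lower in replicate 1, with a median of 0.14. Of all genes 32.6% were called. Most of the 12 genes had all 6 arrays at 100 or more, and 40.6% of all probe sets as bright were called. *DUR3*, a urea transporter gene, had 145 and 113 in replicate 1 and 877, 894, 1335 and 978 elsewhere, 7.85-fold lower (log2 difference -2.97, SE 0.21, adjusted p = 2.74e-05 from limma). *NIA1*, a nitrate reductase gene, was 2.64-fold lower (-1.40, adjusted p = 0.000275), and the cytosolic glutamine synthetase gene *GLN1-1* was lower too (-0.90, adjusted p = 0.000259). The genes called higher were *GLT2*, *GLN2*, *Fd-GOGAT* and *NLP3*, a gene of the nitrate-sensing NLP factors. *GLT2*, an NADH-dependent glutamate synthase gene, had 1268 and 1491 in replicate 1 and 145, 185, 231 and 222 elsewhere (2.83, SE 0.18, adjusted p = 1.65e-05). *GLN2*, the plastid glutamine synthetase gene, had 38629.9 and 41566 against 17851 to 23977 (0.99, adjusted p = 0.00026), and *Fd-GOGAT*, which encodes the ferredoxin-dependent glutamate synthase, had 0.90 (adjusted p = 0.00107). The calls of *GLN2* and *Fd-GOGAT* were lost with quantile normalization (0.33 and 0.29), median centring (0.32 and 0.23) and eBayes without a trend.

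Of 5 potassium channel and HKT genes 3 were called, where 32.6% of all genes were. The inward channel *AKT1* was higher (0.61, adjusted p = 0.012), and *KOB1* (-0.95), a channel subunit gene, and *KCO1* (-1.84) were lower. The *AKT1* call was lost without either replicate 1 array and turned to -0.07 with median centring. Of 11 leaf markers 8 were called, all 8 higher in replicate 1 (median 1.23). Among the 17905 genes, 32.6% were called, and 2515 were called higher. Of the 10 root markers 3 were called (30%, close to the 32.6% of all genes), the iron transporter *IRT1* higher and *Lsi1* and *SCR1* lower. The part of leaf and root content in the transporters' differences was not tested.

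**Figure D4:**
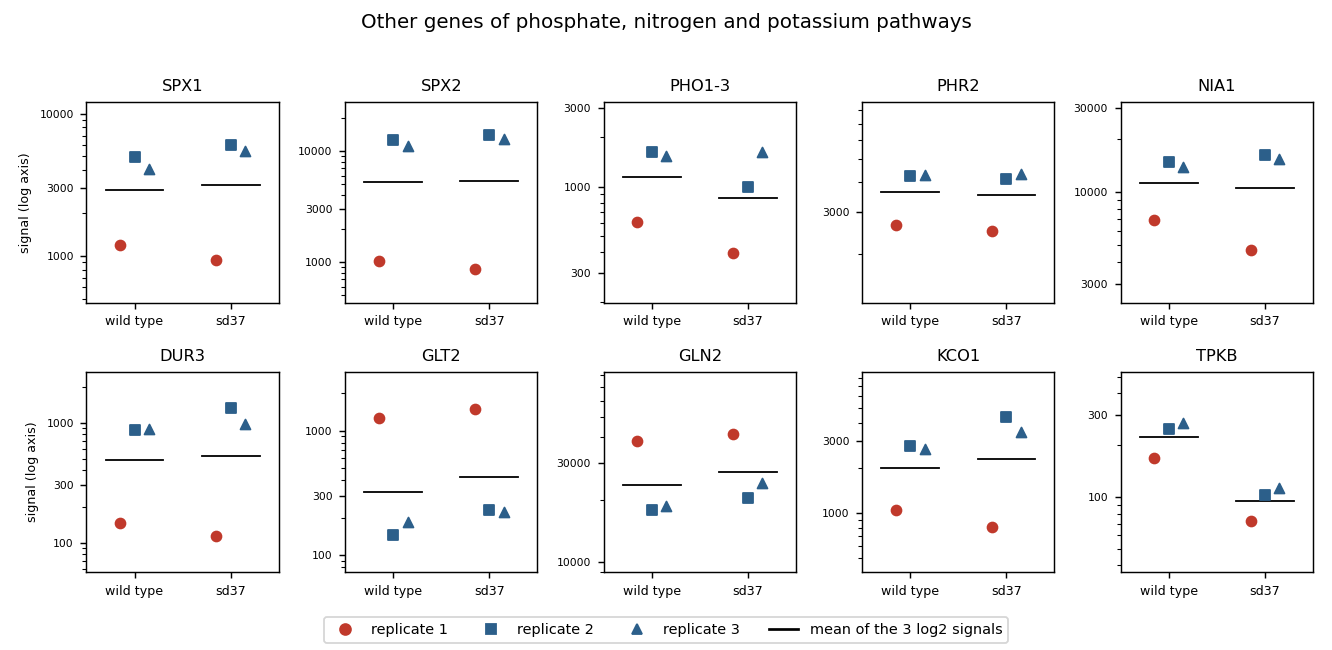
Signals on each array, on log axes, of 10 other genes of phosphate, nitrogen and potassium pathways, by genotype, with symbols for the replicate number and lines for the mean of the 3 log2 signals. *SPX1*, *SPX2*, *PHO1-3*, *PHR2*, *NIA1*, *DUR3* and *KCO1* are lower in both replicate 1 arrays, *GLT2* and *GLN2* are higher, and *TPKB* is lower on all 3 *sd37* arrays.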

How the data were processed

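The deposited values are intensity signals of probe sets on a linear scale. Per the paper's methods, the authors had labelling, hybridization, scanning, pre-processing and normalization done by an Affymetrix service, and the sources used here name no algorithm for the probe set signals. Array medians differ, so the values are not quantile-normalized. The authors' own fold changes and p-values were not used. The table holds 57381 probe sets with 123 controls, which were dropped. Before log2 was taken, 1 replaced the 1.77% of values below it. Every probe set was fitted with limma 3.58.1 in R 4.3.3 (lmFit, eBayes with an intensity trend) over the 6 arrays, and p-values were adjusted over all 57258 probe sets. The fits were tested on simulated data. The number of arrays limits the precision, and the files hold no detection calls.

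Genes were named from the platform table and the reference annotation, and 22436 probe sets name a single gene. The members, lists and tests were chosen with earlier results of these data known. Named with values were the 4 markers and, in each family, the 2 genes of highest mean signal and the 2 of smallest p in each comparison. Other members, the pathway genes and the genes called between replicates are named after their values were seen. Pathway lists were formed from symbols and synonyms alone. They were planned for counts and medians, and the values of single genes were added.

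Samples were grouped by the genotype and replicate number in their titles. Deviations from the group means correlated across probe sets at 0.394, 0.134 and 0.16 for replicates 1, 2 and 3 of the genotypes. Unlike numbers did as well, with 0.164 for wild-type replicate 2 with *sd37* replicate 3 and 0.13 for wild-type replicate 3 with *sd37* replicate 2. These values set replicate 1 apart but cannot show that replicates 2 and 3 are paired by number. Pairing by the numbers in the titles is therefore an assumption, and a fit blocked by replicate number is quoted where it changes a count. As alternatives, both comparisons were repeated with 16 added to each signal, quantile normalization, median centring and a filter on dim probe sets. Others were the mean of a gene's probe sets, eBayes without a trend, an ordinary linear model and leaving out each array. For the genotypes alone, the replicate block, replicate 1 as a batch and replicates 2 and 3 alone were added. For replicate 1 alone, a 3-level replicate factor was added. A planned search of promoters for a binding sequence of PHR factors was not run and no sequences were used here.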

Additional observations from a re-analysis of the deposited data

How the results depend on the processing

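Between the genotypes 0 transporters were called in every alternative tried. Probe sets called went from 0 to 6 with the replicate block, 10 with replicate 1 as a batch term and 17 with replicates 2 and 3 alone. Transporters at the unadjusted threshold went from 1 to 2 with the replicate block, quantile normalization or eBayes without a trend, 3 with median centring, 5 with the batch term and with replicates 2 and 3 alone, 0 with the dim probe sets left out or the ordinary linear model, and 0 to 2 without 1 array. Median differences between genotypes ranged without 1 array from -0.04 to 0.13 for HAK, -0.56 to 0.23 for PHT1, -0.13 to 0.22 for AMT and -0.98 to -0.75 for NRT2. With median centring they were -0.08 for HAK and -0.92 for NRT2, and NRT2 had -0.73 with 16 added. No named gene was called in any alternative, which says nothing of stability, and signs turned without 1 array, as for *PHT1-4* (-0.78 to 0.68).

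Against replicate 1, the balance of directions shifted most with median centring. The median of all probe sets was 0.39 as deposited, 0.18 with 16 added, -0.01 after quantile normalization and -0.28 after median centring. Calls were 5373 higher and 5639 lower as deposited, and 2208 and 13368 after centring. They were 6405 and 5412 with 16 added, and 4373 and 5957 after quantile normalization. Centring made 3 transporters higher and 14 lower, in place of 6 and 8, with family medians of -0.53 (HAK), -0.04 (PHT1), -1.41 (AMT) and -0.33 (NRT2). Quantile normalization called 5 transporters higher and 7 lower, with medians of 0.05 for HAK and -1.28 for AMT. With 16 added, 6 were called higher and 8 lower, and AMT had -0.27. HAK had 0.20 without dim probe sets and 0.09 with the mean of a gene's probe sets, where PHT1 had 0.44. Without a trend 7 transporters were called (3 higher, 4 lower; 4519 probe sets), and with the ordinary linear model 8 (3 and 5; 4766). Without 1 array, 10 to 16 transporters were called, 3 to 8 higher and 6 to 8 lower, among 7059 to 10916 probe sets, the fewest without wild-type replicate 1. Medians then ranged from -0.12 to 0.30 for HAK, 0.40 to 0.75 for PHT1, -1.12 to 0.37 for AMT (0.37 without wild-type replicate 1) and 0.28 to 0.41 for NRT2. *PHT1-1* turned to -0.04 with centring and to -0.11 with the mean of its probe sets, *AKT1* to -0.07 and *NLP3* to -0.06 with centring, and *HAK3* to -0.33 and *HAK22* to 0.08 with the mean of their probe sets. *HAK18*, *PHT1-4*, *AMT1-1* and *AMT1-2* were called in all 14 alternatives, *HAK15*, *HAK17* and *AMT2-1* in 13. Dim genes are limited most, and the causes of these shifts were not tested.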
